A study of Mus musculus with 26 samples.

Results

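The genes described here encode the nuclear subunits of the mitochondrial respiratory chain and of the ATP synthase, followed in cultured mouse pro-B cells that lost the chromatin remodelling ATPase Brg1 (gene Smarca4). Members were the protein-coding rows whose symbol begins with Nduf, Sdha, Sdhb, Sdhc, Sdhd, Uqcr, Cox4 to Cox8 or Atp5, together with Cycs and Cyc1. The rule found 93 genes in all, 91 of the 19404 genes in the deletion table and 93 of the 19719 genes in the knockdown table, since Cox4i2 and Cox8b were listed for the knockdown alone. Measured values played no part in the rule.

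Polyadenylated RNA was sequenced from B220+ bone marrow cells grown for 7 days with IL7 and SCF, the cytokines that sustain early B lineage cells in culture. In the deletion experiment, Brg1-deleted cells carried floxed alleles (Brg1F/F, ER-Cre, 2 libraries) and control cells wild-type alleles (Brg1+/+, ER-Cre, 2 libraries). ER-Cre, a tamoxifen-activated recombinase, was present in both groups, and both were given tamoxifen (0.3 µM) over the final 60 hours. Knockdown was done in Rag1-/- cells, which lack the V(D)J recombinase. Retrovirus for a Brg1 shRNA (3 libraries) or a control shRNA (3 libraries) was added on days 3 and 4, and hCD25 beads were used to enrich infected cells. No label ties the libraries of a group to separate mice, so p-values measure only the spread between these libraries.

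The respiratory chain passes electrons from NADH (complex I) and succinate (complex II) through coenzyme Q to complex III, by cytochrome c to complex IV and on to oxygen, and pumps protons as it does so. The ATP synthase (complex V) lets the protons flow back through a rotating ring of c subunits and makes ATP in its F1 head. Most subunits are encoded in the nucleus, and a small set is encoded by mitochondrial DNA, which neither table lists and which was not analysed here. Assembly factors help to build a complex and are not part of the finished enzyme. In growing lymphocyte precursors the chain supplies ATP and lets the cell regenerate the oxidised cofactors that nucleotide synthesis needs.

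Each table holds the authors' mean of normalized reads (reads divided by a library size factor) for each group, and the fold change, p and adjusted p of the comparison. A gene was called where the adjusted p was under 0.05, and means, fold changes and p-values below are the authors' where limma is not named. The means of the deletion table could also be split into whole reads for each of the 4 libraries, which came to 11546499 and 8814498 reads in the Brg1-deleted libraries and 10679318 and 10291155 in the control libraries. The libraries carry no number and are named deeper and shallower by these totals. In the authors' deposited table, Smarca4 itself averaged 6067 normalized reads in Brg1-deleted cells and 17898 in control cells (adjusted p = 0.0008), and 6743 with the Brg1 shRNA against 13340.1 with the control shRNA (adjusted p = 0.0472). Every one of the 10 pro-B cell markers examined was listed in both tables, and their summed means were 77205 in Brg1-deleted and 50899 in control cells, and 48899 with the Brg1 shRNA against 41929 with the control shRNA. In bulk RNA, fewer cells of a type and less RNA per cell cannot be told apart.

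Before the values, the promoters of the 4 members called on deletion are shown: Cycs, the mobile electron carrier, Atp5g1, a c-ring subunit of the ATP synthase, Ndufa12, an accessory subunit of complex I, and Atp5sl, an assembly component of a membrane arm. Each runs from 250 bases before to 30 bases after the RefSeq start on GRCm38.p6, the build also called mm10, and is written in the direction of the gene. They lie at chr6:50566540-50566819 on the minus strand (Cycs), chr11:96075602-96075881 on the minus strand (Atp5g1), chr10:94198785-94199064 on the plus strand (Ndufa12) and chr7:25619164-25619443 on the plus strand (Atp5sl). Capitals mark matches on either strand to 6 motifs of factors known for respiratory promoters: CGCATGCG (core of the NRF1 site), CCGGAAG (ETS factors, among them GABP), AAGATGGC (YY1), CACGTG (E-box of MYC and USF), TGACGTCA (CREB) and CCAAT (NF-Y).
Cycs: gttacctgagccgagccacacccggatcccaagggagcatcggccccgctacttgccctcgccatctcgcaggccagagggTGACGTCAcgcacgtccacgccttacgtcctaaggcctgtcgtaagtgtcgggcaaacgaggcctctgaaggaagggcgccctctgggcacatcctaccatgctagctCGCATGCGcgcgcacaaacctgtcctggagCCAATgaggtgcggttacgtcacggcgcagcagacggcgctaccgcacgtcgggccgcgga
Atp5g1: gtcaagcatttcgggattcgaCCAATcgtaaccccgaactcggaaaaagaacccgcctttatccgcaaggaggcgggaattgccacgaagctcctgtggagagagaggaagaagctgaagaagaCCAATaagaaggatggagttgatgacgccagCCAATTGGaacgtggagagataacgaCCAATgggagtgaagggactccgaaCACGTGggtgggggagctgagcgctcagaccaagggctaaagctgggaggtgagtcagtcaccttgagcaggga
Ndufa12: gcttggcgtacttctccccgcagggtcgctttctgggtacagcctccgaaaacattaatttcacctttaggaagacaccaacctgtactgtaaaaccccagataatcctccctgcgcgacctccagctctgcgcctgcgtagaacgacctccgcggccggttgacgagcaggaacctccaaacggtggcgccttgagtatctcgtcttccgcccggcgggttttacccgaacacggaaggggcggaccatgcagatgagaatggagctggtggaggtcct
Atp5sl: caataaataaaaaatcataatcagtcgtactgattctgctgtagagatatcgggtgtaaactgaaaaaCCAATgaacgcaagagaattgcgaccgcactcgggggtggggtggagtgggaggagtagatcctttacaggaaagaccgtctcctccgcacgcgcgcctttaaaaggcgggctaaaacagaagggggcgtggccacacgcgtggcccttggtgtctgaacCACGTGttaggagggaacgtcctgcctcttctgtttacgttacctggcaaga
The Cycs window held the NRF1 core 61 bases before the start, TGACGTCA 169 bases before it and a CCAAT 31 bases before it. The Atp5g1 window held an E-box 44 bases before the start and several CCAAT matches, 2 of which overlap as one run of capitals. The Atp5sl window held an E-box 22 bases before the start and one CCAAT. None of the 6 motifs lay in the Ndufa12 window as printed.

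Windows of 300 bases, with 50 after the start, were found for 77 of the 93 members, 3 of them through another symbol of the gene. CGCATGCG was in 13.0% of these 77 windows, against 3.33% of 12429 protein-coding genes in the tables. AAGATGGC was in 13.0% of them, against 4.08% of those genes. CCGGAAG was in 23.4% against 16.0%, TGACGTCA in 6.49% against 2.92%, CCAAT in 45.5% against 38.3% and CACGTG in 9.09% against 9.33%. The motifs were chosen after these promoters had been seen, CACGTG is palindromic as are CGCATGCG and TGACGTCA, and a match is a run of letters, not a measured binding site. The median log2 fold change on deletion was -0.62 for the 10 genes whose window held the NRF1 core, which include Cycs and Ndufaf4, and -0.37 for the genes without it. Genes with AAGATGGC, CACGTG and TGACGTCA had medians of -0.49, -0.47 and -0.42, and genes without them -0.36, -0.38 and -0.38. For CCGGAAG and CCAAT the order was the other way, -0.27 and -0.36 with the motif and -0.41 and -0.42 without it. These are descriptions with no test.

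Brg1 deletion came with lower listed levels of most of these genes, by a modest amount. Of 91 members, 79 had a log2 fold change below 0 in Brg1-deleted over control cells and 12 had one above 0, where 50.1% of all listed genes and 51.0% of protein-coding genes lay below 0 and 49.9% and 49.0% above it. The median log2 fold change was -0.42 over the members and -0.0014 over all listed genes. Summed over the members, the means were 64600 normalized reads in Brg1-deleted and 84838 in control cells, or 0.639% and 0.819% of all listed reads. By the adjusted p of the authors' deposited table, 3 members fell (Cycs, Atp5g1 and Ndufa12), where 0.742% of all genes were called lower, and 1 rose (Atp5sl), where 0.732% were called higher. At an unadjusted p under 0.05, 12 members were lower (5.29% of all genes) and 1 was higher (4.23% of all genes).

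The knockdown came with a smaller shift. Of 93 members, 77 had a log2 fold change below 0 with the Brg1 shRNA over the control shRNA and 16 above 0. Of all genes 50.3% lay below 0 and 49.7% above it, and of protein-coding genes 51.3% and 48.7%. The median log2 fold change was -0.21 over the members and -0.0028 over all listed genes. The summed means were 70597 normalized reads with the Brg1 shRNA and 81509 with the control shRNA, or 0.820% and 0.918% of all listed reads. In the authors' deposited table, whose tool per the processing notes was DESeq, 0 members were called lower (0.0406% of all genes were) and 0 higher (0.177% of all genes were). At an unadjusted p under 0.05 the count was 1 lower (Ndufaf6) and 0 higher, against 1.08% and 1.67% of all genes. No other tool was run on this table, because its means, which pool 3 libraries each, were not split into libraries. They sum to 8607181 normalized reads with the Brg1 shRNA and 8878602 with the control shRNA.

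By complex, the medians on deletion were -0.36 for 45 genes of complex I, -0.18 for 6 of complex II, -0.43 for 9 of complex III, -0.38 for 14 of complex IV and -0.48 for 16 of complex V. Cytochrome c stood at -1.72. With the shRNA the same medians were -0.20, -0.05, -0.27, -0.25 over 16 genes and -0.22, and cytochrome c stood at -0.31. By median, complex II, the only one also placed in the tricarboxylic acid cycle, was nearest to 0 in both experiments. Without its assembly factors its medians were -0.27 on deletion and -0.15 with the shRNA. By the log2 ratio of summed means, complex IV was nearer to 0 on deletion (-0.198, against -0.255 for complex II). With the shRNA these ratios were -0.144 and -0.140. Differences between complexes were not tested.

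**Figure D1:**
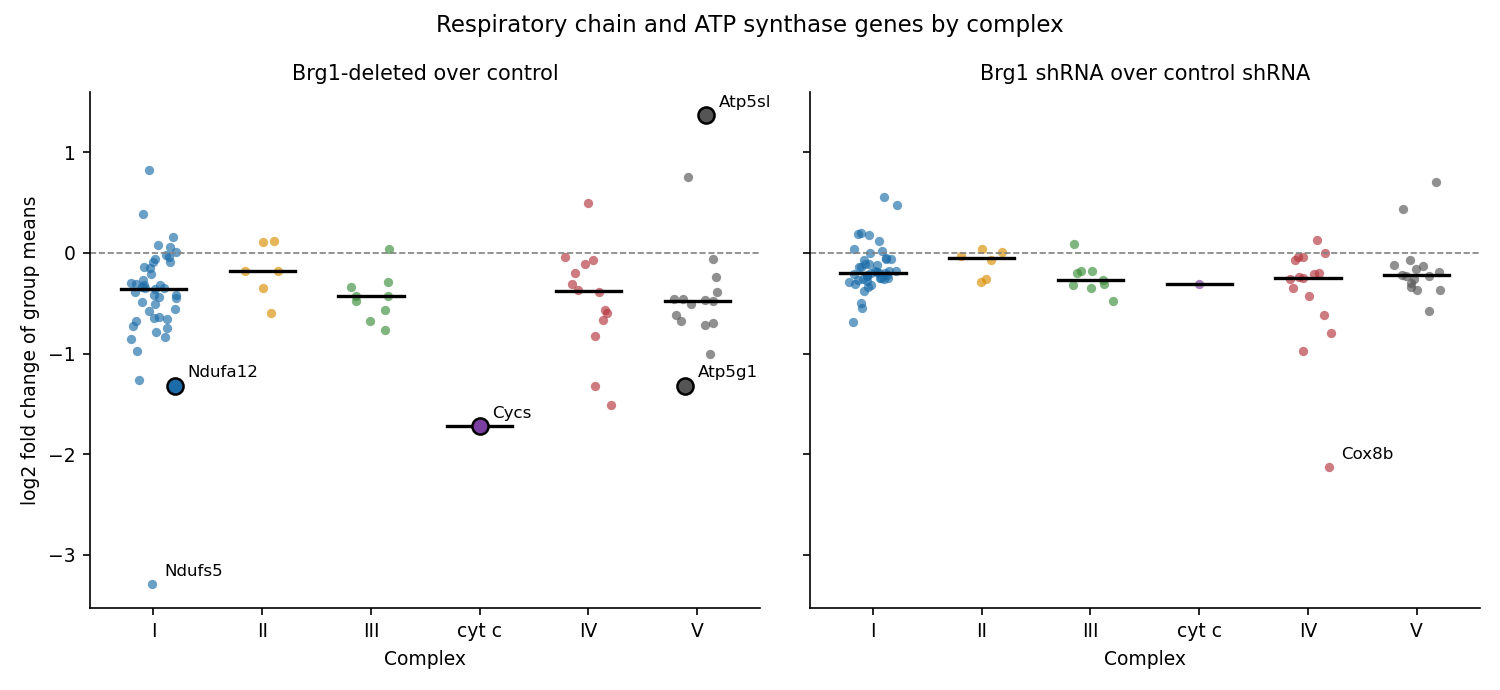
Log2 fold change (y axis) of each gene by complex (x axis) for Brg1-deleted over control cells (left) and the Brg1 shRNA over the control shRNA (right). Each point is 1 gene, horizontal lines are medians and ringed points are the 4 genes called at an adjusted p under 0.05, and most points lie under the dashed line at 0 in both panels.

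The recovered reads give the values library by library. Of 84 members with a single whole-read solution in both groups and a mean of at least 1, 50 (59.5%) were lower in both Brg1-deleted than in both control libraries, where 23.1% of all 16609 such genes were. Another 6 were higher in both Brg1-deleted libraries, where 24.9% of all such genes were, and 28 overlapped. The 7 members that could not be split were abundant ones: Atp5a1, Atp5b, Atp5c1, Atp5f1, Atp5g3, Cox4i1 and Uqcrc1. With limma on the recovered reads, 0 members and 0 of all 16609 genes passed an adjusted p of 0.05 (0% called), and the lowest adjusted p of a member was 0.126, that of Cycs. At an unadjusted p under 0.05 limma counted 26 members lower (8.45% of all genes) and 4 higher (8.15% of all genes).

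These genes were measured in the same 4 libraries and are not replicates, and the libraries of a group were not alike. As a median over 81 members, in log2 units from the mean of the 4 libraries, the deeper and shallower Brg1-deleted libraries stood at -0.18 and -0.22, and the deeper and shallower control libraries at 0.06 and 0.29. Both Brg1-deleted libraries thus lay below both controls, and the shallower control library stood above the deeper one. Without the shallower control library the median of the members was -0.22 in place of -0.42, that of complex V was -0.18, that of complex I -0.20 and that of complex IV -0.24, while that of complex II turned to 0.06. That of complex III was -0.42 without it.

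**Figure D2:**
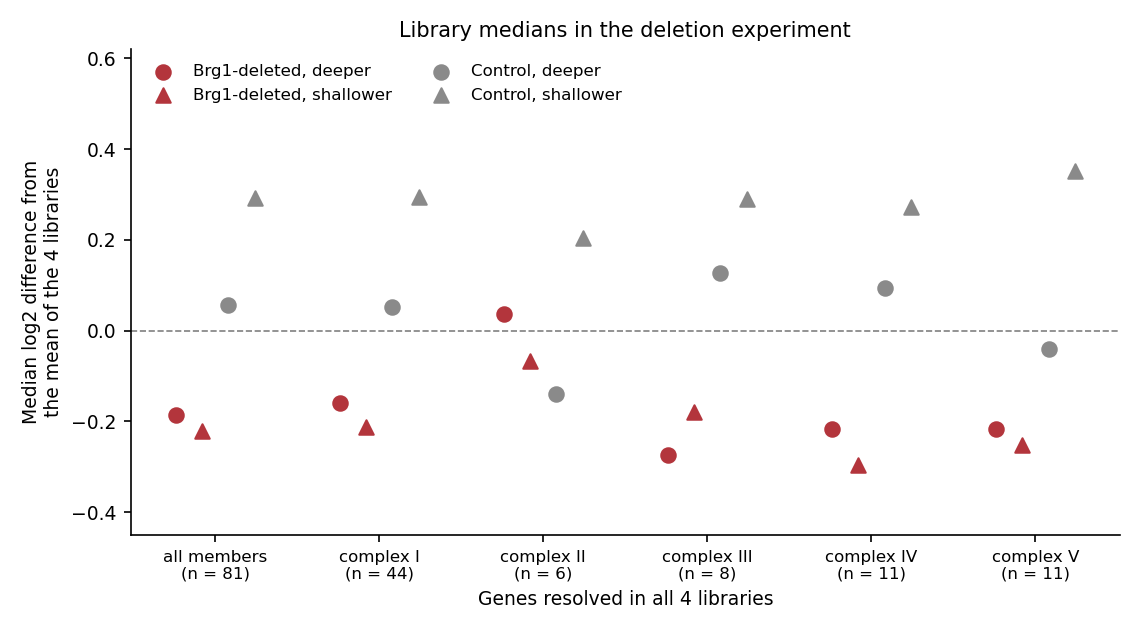
Median log2 difference of the resolved genes from the mean of the 4 libraries (y axis), for all of them and by complex (x axis), in the deletion experiment. Red marks are the Brg1-deleted libraries and grey marks the controls, circles the deeper and triangles the shallower library, and red lies below grey except in complex II, where the deeper control is the lowest at -0.14.

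Levels of markers of other cell types also differed between these libraries. The summed level of macrophage markers was 1619 and 381 normalized reads in the deeper and shallower Brg1-deleted libraries and 467 and 2021 in the deeper and shallower control libraries, over 7 of 8 listed markers that could be split. Neutrophil markers, 7 of 8 of them split, summed to 46.7 and 611 in the deeper and shallower Brg1-deleted libraries and to 1261 and 681 in the control libraries. Mpo, which could not be split and is not in these sums, averaged 513 in Brg1-deleted and 2177 in control cells. For Ngp, Ltf, Camp, S100a8 and S100a9 the libraries of the groups overlapped. S100a9, for example, had 0.864 and 134 in the deeper and shallower Brg1-deleted libraries and 182 and 2.00 in the control libraries. Mast cell and basophil markers summed to 648 and 190 in the deeper and shallower Brg1-deleted libraries and 184 and 614 in the controls. Here, in the macrophage sum and in S100a9, the deeper library of each group lay nearest the shallower library of the other. The neutrophil sum, Elane and Prtn3 did not show this. limma had no term for this likeness, so it counted as spread within groups. No label tells whether such libraries belong together, and no fit paired them. All 8 neutrophil markers were below 0 on deletion and 2 of them, Elane and Prtn3, were called lower, while of the T cell markers 5 of 6 were below 0 and Lck was called. Of all genes, 50.1% lay below 0 and 0.742% were called lower. None of these markers is listed at 0 in a group of the deletion table. In the knockdown the macrophage markers summed to 392 with the Brg1 shRNA and 327 with the control shRNA, and the neutrophil markers to 183 and 217. The T cell markers summed to 84.2 in Brg1-deleted and 222.9 in control cells. In the knockdown they summed to 430.3 with the Brg1 shRNA and 279 with the control shRNA. Lck held most of each sum, averaging 62.8 in Brg1-deleted and 195 in control cells. With the Brg1 shRNA and the control shRNA it averaged 427 and 273 (log2 fold change 0.64, unadjusted p = 0.0188 in the authors' deposited table, not called). Every other T cell marker averaged 11.1 or less, so these sums follow Lck and do not measure T cell content. The part of other cell types in the shift of the respiratory genes was not tested.

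Cytochrome c, the carrier between complexes III and IV and a trigger of the caspase cascade when it leaves mitochondria, showed the lowest adjusted p among the genes that fell. Cycs (ENSMUSG00000063694, chr6:50562563-50566538, minus strand, mm10) had 63.9 and 57.0 normalized reads in the deeper and shallower Brg1-deleted libraries, against 186 and 212 in the deeper and shallower control libraries. Both Brg1-deleted values lay below both control values, so the groups did not overlap. Of all genes with split reads, 23.1% were lower in this way and 24.9% higher. Cycs was picked by a p from the same libraries, so its separation adds no support. The same goes for the other genes named by their p. In the authors' deposited table Cycs averaged 60.5 in Brg1-deleted and 199 in control cells, and its log2 fold change was -1.72 (adjusted p = 0.0177). With the shRNA the authors' deposited table gives Cycs 152 against 187 with the control shRNA, a log2 fold change of -0.31 at an unadjusted p of 0.776.

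Cycs is one of the genes with processed pseudogenes, intron-less copies of its own transcript, listed in rows of their own. The tables list 3, and together they held 80.3% of the reads of the family in control cells. Whether reads of Cycs were counted under its copies was not tested, so its row is uncertain. In the authors' deposited table the copy Gm10053 averaged 332 in Brg1-deleted and 711 in control cells (adjusted p = 0.1239), and the copy Gm10108 averaged 22.9 and 96.5 (adjusted p = 0.0236). Summed over Cycs and its copies, the 4 libraries had 442 and 393 normalized reads with Brg1 deleted, against 914 and 1106 in the controls. The libraries did not overlap in this sum either, and its log2 ratio was -1.27. With the shRNA the family summed to 827 against 1145 with the control shRNA, a log2 ratio of -0.47.

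Of the 4 calls, 2 bear ATP synthase symbols. Atp5g1 (ENSMUSG00000006057, chr11:96068852-96075670, minus strand) encodes the same mature c subunit as its sister genes, from a different precursor. It had 356 and 342 normalized reads in the deeper and shallower Brg1-deleted libraries, against 754 and 988 in the control libraries. The groups did not overlap. The authors' deposited table gives 349 and 871 as its means and -1.32 as its log2 fold change (adjusted p = 0.0266), and with 2 listed copies added the log2 ratio was -1.13. With the shRNA, Atp5g1 averaged 602 against 764 with the control shRNA, a log2 fold change of -0.34.

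Atp5g3, a second c-ring gene, averaged 1329 in Brg1-deleted and 2671 in control cells, and its log2 fold change in the authors' deposited table was -1.01 (adjusted p = 0.1315). It did not pass, and its reads could not be split by library. With the shRNA, Atp5g3 averaged 2061 against 2659 with the control shRNA (log2 fold change -0.37). Per kilobase of listed exon, Atp5g3 stood at 609 in Brg1-deleted and 1225 in control cells and Atp5g1 at 71.0 and 177, so Atp5g3 was the more abundant of the pair in both groups. Atp5g2, the other gene of this set, was not analysed here.

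The F1, peripheral stalk and small membrane genes of the enzyme all lay below 0 without passing the test. The 5 F1 genes had a median of -0.39 on deletion and -0.22 with the shRNA. Atp5b, the catalytic beta subunit, averaged 6834 in Brg1-deleted and 11199 in control cells (log2 fold change -0.71, unadjusted p = 0.0244, adjusted p = 0.4479 in the authors' deposited table). Atp5a1, the alpha subunit, averaged 7409 and 10177 (log2 fold change -0.46), and had the highest level per kilobase of any member, 2363 in Brg1-deleted and 3246 in control cells. Together the F1 genes held 17555 of the 64600 normalized reads of all members in Brg1-deleted cells and 25319 of the 84838 in control cells. The 4 peripheral stalk genes, which hold the head still while the ring turns, lay between -0.50 (Atp5o) and -0.46 (Atp5h). The 3 small membrane genes Atp5k, Atp5j2 and Atp5l had -0.70, -0.62 and -0.67.

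Atp5sl rose on deletion, the one call in that direction. RefSeq lists it as Dmac2, and in human cells its product is known for assembly of the membrane arm of complex I, so its symbol places it in complex V by name alone. Atp5sl (ENSMUSG00000057229, chr7:25619414-25625551, plus strand) had 939 and 747 normalized reads in the deeper and shallower Brg1-deleted libraries, against 300.3 and 354 in the control libraries. Every Brg1-deleted value was above every control value. Its means in the authors' deposited table were 843 and 327, and its log2 fold change was 1.36 (adjusted p = 0.0150). With the shRNA it averaged 458 against 282 with the control shRNA, a log2 fold change of 0.70 at an unadjusted p of 0.16. Both fold changes were the highest among the members in their experiment.

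Its relative by name Atp5s, known as coupling factor B, had 97.6 and 117 normalized reads in the deeper and shallower Brg1-deleted libraries and 61.4 and 66.0 in the control libraries. The groups did not overlap, and in the authors' deposited table the log2 fold change was 0.75 (unadjusted p = 0.124). With the shRNA its log2 fold change was 0.44. Per kilobase Atp5s stood at 72.4 in Brg1-deleted and 42.9 in control cells, the lowest of the complex V genes in control cells.

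**Figure D3:**
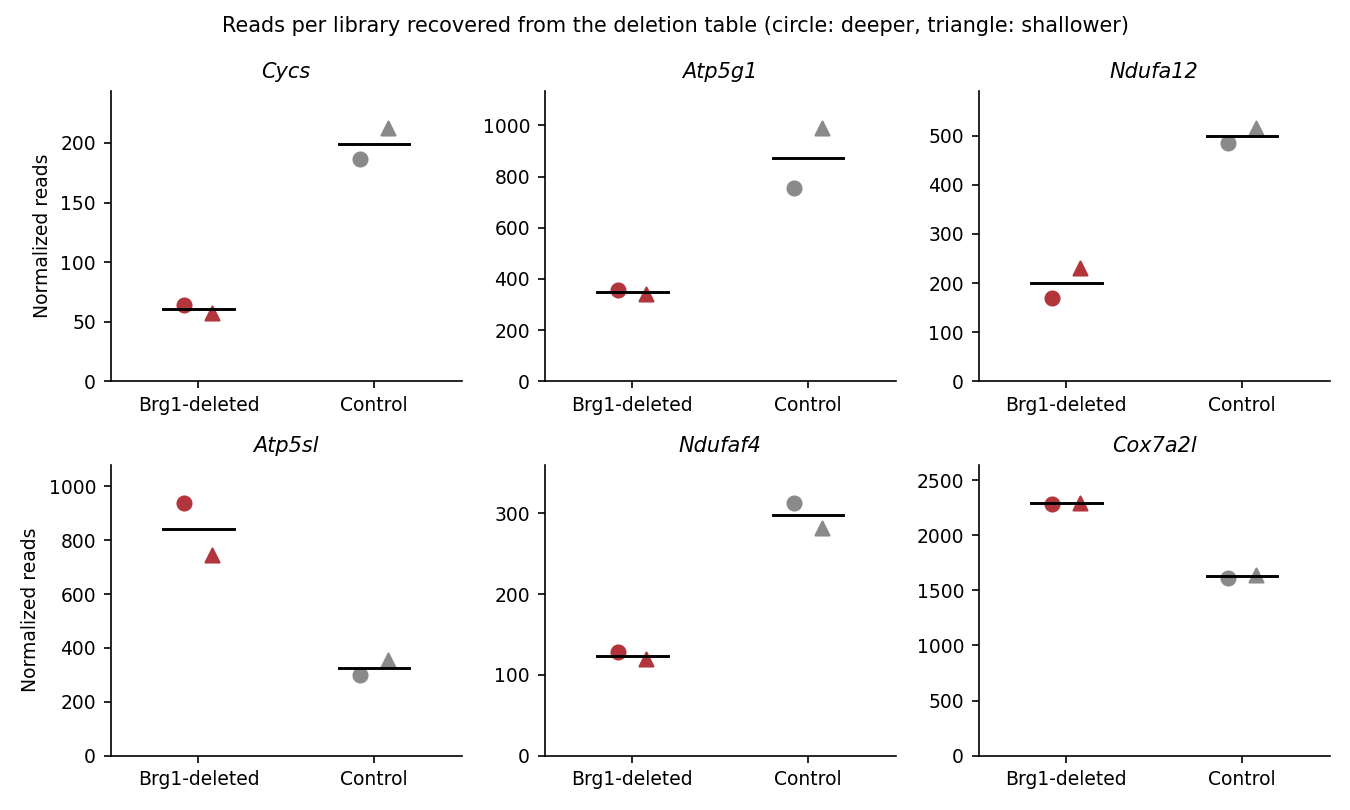
Normalized reads (y axis) in each library of the deletion experiment for Cycs, Atp5g1, Ndufa12, Atp5sl, Ndufaf4 and Cox7a2l, with Brg1-deleted libraries in red at the left and control libraries in grey at the right. Circles are the deeper and triangles the shallower library, bars are means of 2, and the groups do not overlap in any of the 6 panels. Of all genes with split reads, 23.1% were lower in both Brg1-deleted libraries and 24.9% higher.

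Complex I, the entry point of NADH electrons, was the largest set. Of its 45 genes, 39 were below 0 on deletion and 36 with the shRNA. The 7 core subunits, which carry the flavin and the iron-sulphur clusters, had a median of -0.29 on deletion, and the 30 accessory subunits, which surround and stabilise the core, one of -0.41. Ndufs1 had the lowest p among the core genes and averaged 743 in Brg1-deleted and 1005 in control cells (log2 fold change -0.44).

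Ndufa12, an accessory subunit of the NADH-oxidising arm, was the complex I gene that fell. Ndufa12 (ENSMUSG00000020022, chr10:94198955-94221443, plus strand) had 170.2 and 230.3 normalized reads in the deeper and shallower Brg1-deleted libraries, against 486 and 514 in the control libraries. The groups did not overlap. The authors' deposited table gives means of 200.2 and 500.0 and a log2 fold change of -1.32 (adjusted p = 0.0308). With the shRNA it averaged 357 against 523 with the control shRNA, a log2 fold change of -0.55 at an unadjusted p of 0.1641.

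Ndufb6, an accessory subunit of the membrane arm, averaged 178 in Brg1-deleted and 350.2 in control cells (log2 fold change -0.98, adjusted p = 0.3228 in the authors' deposited table). Ndufa9, which binds NADPH near the quinone site, averaged 558 and 938 (log2 fold change -0.75, adjusted p = 0.4849). Neither passed. Ndufa4 had the highest level per kilobase of the Nduf genes, 1207 in Brg1-deleted and 1797 in control cells, and its product is now known as a subunit of complex IV despite its name. Ndufa4l2, its hypoxia-induced relative, was near the floor of the table, at 1.45 and 2.49 normalized reads.

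Ndufs5 had the lowest fold change on deletion and was the least certain of the set. It had 9.50 and 25.6 normalized reads in the deeper and shallower Brg1-deleted libraries, against 85.8 and 258 in the control libraries. Its log2 fold change in the authors' deposited table is -3.29 (unadjusted p = 0.0287, adjusted p = 0.4925). Its pseudogene BC002163 had 204 and 184 in the deeper and shallower Brg1-deleted libraries and 213 and 129 in the control libraries, so the library with more reads under Ndufs5 in each group had fewer under the copy. Their sum was 213 and 209 in the Brg1-deleted libraries and 298 and 387 in the control libraries. The log2 ratio of the summed means was -0.70, in place of -3.29.

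The assembly factors went both ways. Of the 7 for complex I, Ndufaf4 had 128 and 119.8 normalized reads in the deeper and shallower Brg1-deleted libraries, against 313 and 282 in the control libraries. In the authors' deposited table its log2 fold change was -1.27 and its adjusted p 0.0952, which did not pass. Ndufaf3, which acts in the same early assembly step as Ndufaf4, had 186 and 251 in the Brg1-deleted libraries and 106 and 140.1 in the control libraries (log2 fold change 0.83, adjusted p = 0.6513 in the authors' deposited table). The libraries of the groups did not overlap for either gene, and the 2 genes lay on opposite sides of 0 in both experiments. Ndufaf6 averaged 72.4 with the Brg1 shRNA and 117 with the control shRNA, the lowest p of any member in that experiment (log2 fold change -0.69, unadjusted p = 0.0395), and 61.5 in Brg1-deleted against 109.9 in control cells. Ndufaf7, a methyltransferase of complex I assembly, lay above 0 in both, at 0.39 and 0.20.

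Complex II has 4 subunits and 2 assembly factors here. Sdha, the flavoprotein that oxidises succinate, had 1601 and 2083 normalized reads in the deeper and shallower Brg1-deleted libraries and 2856 and 1841 in the control libraries, and the groups overlapped. Sdhb, the iron-sulphur subunit, had 1350.3 and 1205 with Brg1 deleted and 1149.6 and 1747 in the controls, again overlapping. Of the membrane anchors, Sdhc had a log2 fold change of -0.18 and Sdhd one of -0.60. Sdhd was the one subunit whose libraries separated, at 698 and 772 in the Brg1-deleted and 1208 and 1018 in the control libraries, yet it was not called (adjusted p = 0.7835 in the authors' deposited table). Of all genes with split reads, 23.1% were lower in this way. With the shRNA the 4 subunits ran from -0.29 (Sdhd) to 0.03 (Sdhb). Per kilobase Sdhd was the highest of the 6, 571 in Brg1-deleted and 865 in control cells, and Sdhaf1 the lowest, 128 and 119. Sdhaf2, which attaches the flavin to Sdha, and Sdhaf1 had 0.12 and 0.10 on deletion.

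Complex III hands electrons to cytochrome c. None of its 9 genes was called by the authors' deposited table, with 1 lower on deletion and 0 with the shRNA at an unadjusted p under 0.05. Of all genes, 5.29% and 1.08% were lower at that p. Of the 9, 8 were below 0 in each experiment, and 7 of the 8 that could be split were lower in both Brg1-deleted than in both control libraries. Of all genes with split reads, 23.1% were. Uqcr11 had the lowest p, at 243 and 200.0 normalized reads in the deeper and shallower Brg1-deleted libraries and 308 and 445 in the control libraries (log2 fold change -0.77, adjusted p = 0.6323 in the authors' deposited table). Cyc1, the cytochrome c1 that passes the electron on, had 878 and 1023 with Brg1 deleted, against 1413 and 1411 in the controls (log2 fold change -0.57). Uqcrq averaged 386 in Brg1-deleted and 619 in control cells, and 428 with the Brg1 shRNA against 594 with the control shRNA, its log2 fold changes being -0.68 and -0.47. Uqcrh, the hinge protein beside cytochrome c1, was the exception, at 0.04 on deletion and 0.09 with the shRNA. Uqcrc1 was highest per kilobase, 953 in Brg1-deleted and 1208 in control cells, and Uqcrq lowest, 211 and 338. The rank of Uqcrq rests on its listed exon length of 1831 bases, since in control cells its mean of 619 reads was above the 377 of Uqcr11.

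In complex IV, the oxidase, the 10 broadly used accessory subunits were all below 0 in both experiments and none passed. Cox5a, a subunit on the matrix side, had 812 and 687 normalized reads in the deeper and shallower Brg1-deleted libraries and 1176 and 1477 in the control libraries (log2 fold change -0.82, adjusted p = 0.384 in the authors' deposited table). Cox7b had 469 and 472, against 714 and 715, and its log2 fold change was -0.60 on deletion and -0.43 with the shRNA. Libraries of the groups did not overlap for either gene. Cox6c averaged 522 in Brg1-deleted and 827 in control cells (log2 fold change -0.66). Cox4i1, which overlaps a listed gene, and Cox8a were close to 0, at -0.04 and -0.07.

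The oxidase has isoforms that muscle or testis use in place of the common ones, and these were near the floor. Cox6a1 averaged 753 in Brg1-deleted and 1118 in control cells, and Cox6a2, the muscle form, 5.76 and 7.45. Cox6b1 averaged 529 and 609, and the testis form Cox6b2 7.24 and 18.1. Cox7a2 averaged 682 and 846, and the muscle form Cox7a1 3.47 and 9.88. Low forms carry few reads, so their fold changes of -0.37, -1.32 and -1.51 rest on little. Cox4i2, the lung form, and Cox8b, a muscle form, were listed for the knockdown alone, at 1.42 and 0.519 normalized reads with the Brg1 shRNA, against 1.41 and 2.28 with the control shRNA. Cox8c and Cox7b2 were not analysed here.

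Cox7a2l, which joins complexes III and IV into a supercomplex, went the other way from the subunits it resembles. It had 2281 and 2294 normalized reads in the deeper and shallower Brg1-deleted libraries, against 1612 and 1639 in the control libraries. The groups did not overlap, and the libraries within a group were close. The authors' deposited table gives a log2 fold change of 0.49 and an unadjusted p of 0.139 on deletion, so it was not called, and 0.12 with the shRNA. Per kilobase it stood at 1994 in Brg1-deleted and 1417 in control cells, beside 905 and 1121 for Cox7a2.

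Taken by role, 70 of the 75 genes for structural subunits and cytochrome c lay below 0 on deletion (median -0.43), and 68 of 75 with the shRNA (median -0.22). Of the 16 other members on deletion, namely assembly factors, tissue isoforms, Cox7a2l, Atp5s and Atp5sl, 9 were below 0 and 7 above (median -0.28). With the shRNA 9 of the 18 others were below 0 and 9 above (median -0.04). The structural genes summed to 59468 normalized reads in Brg1-deleted and 80841 in control cells, and the others to 5132 and 3996. Of the reads of the others, Cox7a2l held 2288 and 1625 and Atp5sl 843 and 327. Their higher sum therefore does not describe the others as a class. This split was drawn with results of these data known and was not tested.

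Besides Cycs and Ndufs5, the listed pseudogene copies changed the reading of a few members. On deletion 15 members had a copy in the table, and in 3 of them, Cycs, Atp5l and Cox7c, the copies held more reads than the gene in control cells. Atp5l had a log2 fold change of -0.67 on its own and -0.16 with its copies, which held 75.4% of the family's reads. Cox7c had -0.11 on its own and -0.41 with its copies. The libraries of the groups overlapped in both sums. That of Atp5l was 773 and 679 in the deeper and shallower Brg1-deleted libraries and 664 and 960 in the control libraries. That of Cox7c was 716 and 458 against 588 and 975. Ndufab1, the acyl carrier protein of complex I, had -0.32 on its own and -0.44 with its copy. Atp5g1 was given above, and for the other 9 members the sum stayed within 0.119 of the gene's own value.

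**Figure D4:**
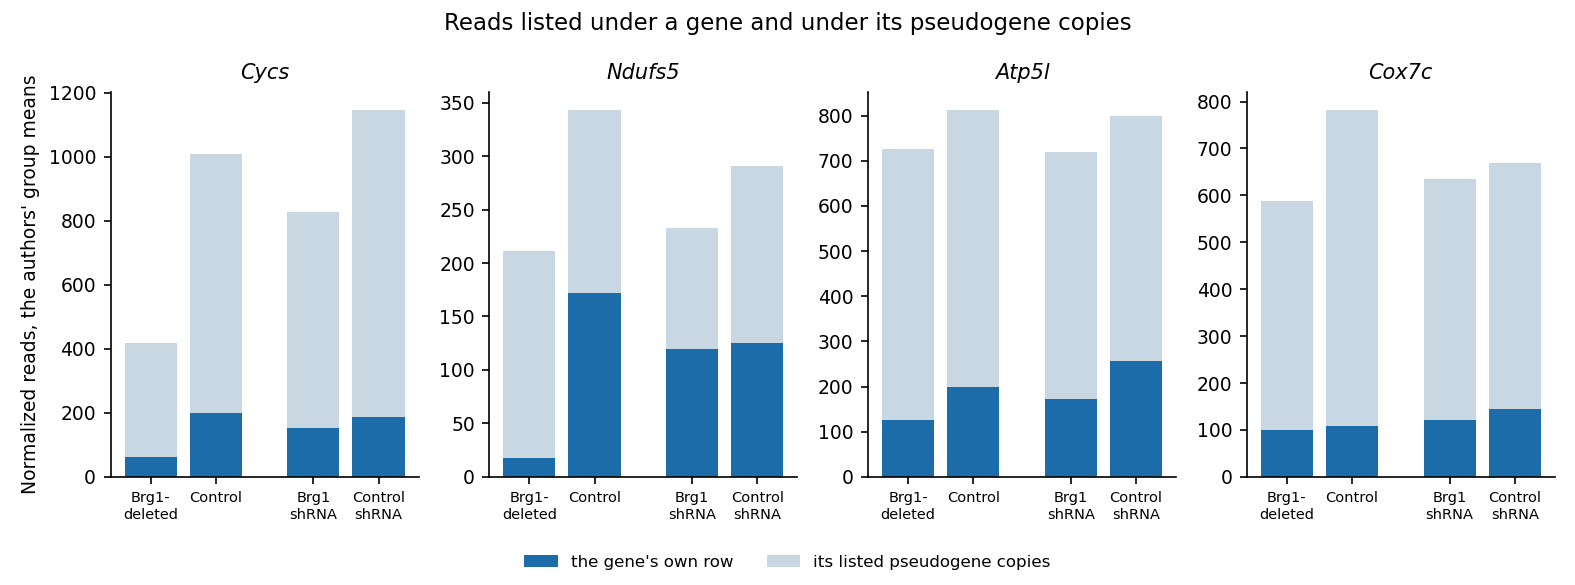
Normalized reads (y axis, the authors' group means) listed under Cycs, Ndufs5, Atp5l and Cox7c (dark) and under their pseudogene copies (light), stacked, in Brg1-deleted, control, Brg1 shRNA and control shRNA cells (x axis). The family totals are lower in the Brg1-depleted group of each pair, by log2 ratios from -1.27 (Cycs, deletion) to -0.07 (Cox7c, knockdown), whatever the split between gene and copies. On deletion the libraries of the groups overlap in the totals of Atp5l and Cox7c.

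Overlapping genes are a further limit on single rows, since the libraries mark strand but whether counting used it is not given in the sources used here. On deletion 23 members overlapped a listed gene, all among the 29 members that carry the authors' confounded mark. Of all genes with this mark in the deletion experiment, 78.3% overlapped a listed gene, against 0.0195% of genes without it. None of the 4 called members carries the mark. Ndufb2, for example, overlaps Adck2 on the same strand, which averaged 342 in Brg1-deleted and 135 in control cells and was called higher (adjusted p = 0.0414 in the authors' deposited table), while Ndufb2 averaged 226 and 302.

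Deletion and knockdown share no samples, so they can be set beside each other. Of 91 members listed in both, 73 were below 0 in both, 9 were above 0 in both, and 9 had opposite signs. Among those above 0 in both were Atp5s, Atp5sl, Cox7a2l, Ndufaf3, Ndufaf7 and Uqcrh. Over the 87 members with a mean of at least 10 in both, Pearson's r across genes was 0.64 and Spearman's rho 0.76, and without Ndufs5 they were 0.82 and 0.80. Over all 11953 such genes they were 0.675 and 0.719. Genes are not independent replicates, and these are descriptions. In 76 of the 87 members the fold change was farther from 0 on deletion than with the shRNA, as it was in 75.2% of all such genes.

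**Figure D5:**
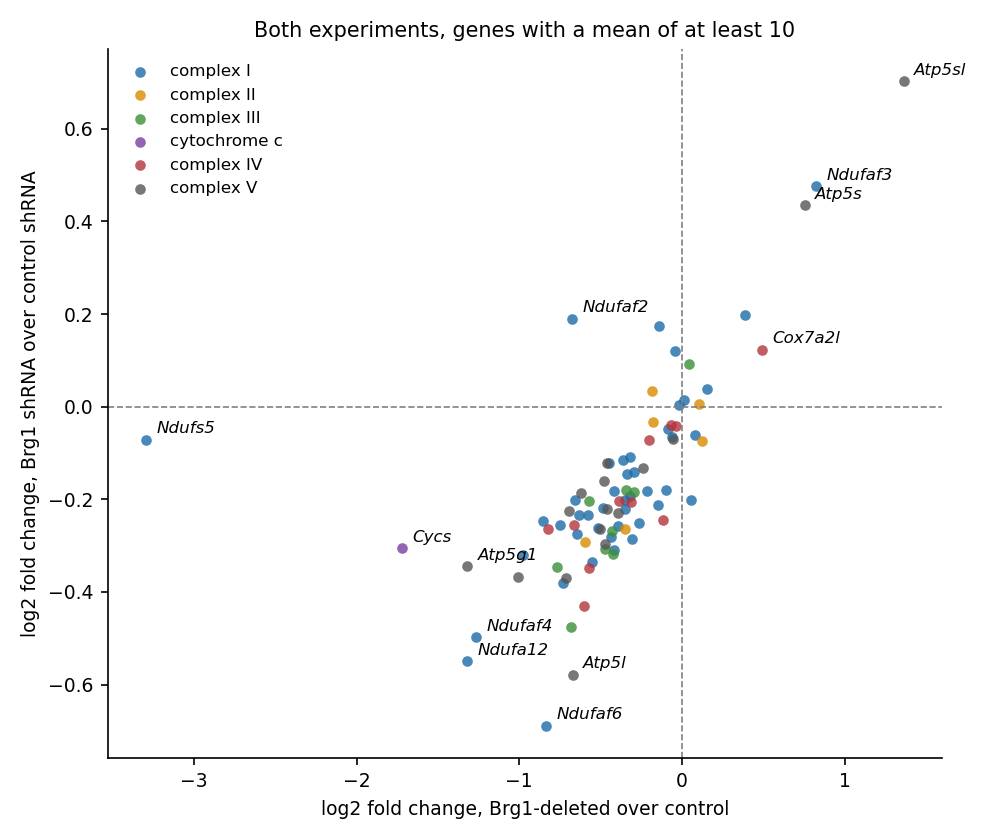
Log2 fold change with the Brg1 shRNA over the control shRNA (y axis) against that of Brg1-deleted over control cells (x axis), for the 87 genes with a mean of at least 10 in both, coloured by complex. Most points lie at the lower left, Atp5sl, Ndufaf3, Atp5s and Cox7a2l at the upper right, and Ndufs5 stands apart at -3.29 and -0.07.

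Lists of genes around the chain lay mostly on the same side of 0. For comparison with the counts below, 0.742% of all genes were called lower on deletion and 5.29% were lower at an unadjusted p under 0.05. With the shRNA these shares were 0.0406% and 1.08%. In the tricarboxylic acid cycle, which feeds the chain with NADH and succinate, 15 of 16 genes were below 0 on deletion and 16 of 16 with the shRNA (medians -0.39 and -0.26), and 0 were called in either by the authors' deposited table, with 3 and 0 lower at an unadjusted p under 0.05. Idh3a, a subunit of NAD-dependent isocitrate dehydrogenase, averaged 489 in Brg1-deleted and 1012 in control cells (log2 fold change -1.05, adjusted p = 0.1239), and Suclg2 262 and 489.8 (log2 fold change -0.90). In the set for coenzyme Q synthesis and other electron donors, 13 of 15 were below 0 in each experiment (medians -0.43 and -0.16), with 0 called and 3 and 0 lower at an unadjusted p under 0.05. Etfb and Etfa, the electron transfer flavoprotein of fatty acid oxidation, had -0.81 and -0.73 on deletion.

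The carriers that exchange ATP, ADP and phosphate across the mitochondrial membranes, with the ATPase inhibitor, had the lowest median of these lists, -0.62 on deletion and -0.29 with the shRNA, with 8 of 9 below 0 in each, 0 called and 3 and 0 lower at an unadjusted p under 0.05. Slc25a5, the ADP/ATP carrier, averaged 2875 in Brg1-deleted and 6201 in control cells (log2 fold change -1.11, adjusted p = 0.057 in the authors' deposited table), and Vdac1, an outer membrane channel, 1150.2 and 2005 (log2 fold change -0.80). Of 34 listed assembly factors outside the rule, 24 were below 0 on deletion and 26 with the shRNA (medians -0.21 and -0.12). None was called, and 3 and 0 were lower at an unadjusted p under 0.05, led by Uqcc2 and Cox10 at -0.85 and -0.76 on deletion. Of all genes, 5.29% and 1.08% were lower at that p.

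Of 17 listed regulators of respiratory genes and mitochondrial DNA, 12 were below 0 on deletion and 13 with the shRNA. One fell: Ppargc1b, a coactivator of nuclear receptors that raises respiratory gene transcription in other tissues, had 44.9 and 55.8 normalized reads in the deeper and shallower Brg1-deleted libraries, against 167 and 142 in the control libraries (log2 fold change -1.62, adjusted p = 0.0412 in the authors' deposited table). At an unadjusted p under 0.05, 3 regulators were lower on deletion, and those other than Ppargc1b did not pass the adjustment. Of all genes, 5.29% were lower at that p and 0.742% were called lower. Pprc1, a relative of Ppargc1b, averaged 539 in Brg1-deleted and 1312 in control cells (log2 fold change -1.28, adjusted p = 0.0814 in the authors' deposited table). Myc, a growth regulator that binds E-boxes, averaged 517 and 1938 (log2 fold change -1.91, adjusted p = 0.146 in the authors' deposited table). With the shRNA 0 regulators were called and 0 were lower at an unadjusted p under 0.05. There Myc averaged 1242 against 1743 with the control shRNA, and Myc and Tfb1m had the lowest p, with log2 fold changes of -0.49 and -0.50. The median of the list was -0.20 on deletion and -0.11 with the shRNA.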

How the data were processed

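Polyadenylated RNA was made into strand-marked (dUTP) libraries, per the labels' protocols, and 10 libraries in 4 groups were analysed; the other 16 samples were not analysed here. CASAVA, RSEM and DESeq with mm10 are named, with no versions, per the submitters' processing notes. The deposited group means are a signal that the file headers name by group, and their values step like a mean of reads that the authors divided by library size factors. The deposited log2 fold change is Brg1-depleted over control, and the deposited linear fold is a signed score, negative where the gene is lower. Each deposited p-value, raw or adjusted by Benjamini-Hochberg, comes from the authors, and calls use an adjusted p of 0.05. Medians and sums were computed from these values, and levels per kilobase from the deposited exon length. Ranks of genes by level per kilobase therefore depend on that length.

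In the deletion table each mean is a sum of whole reads of 2 libraries, each read worth a fixed step. Within 6.0e-05 normalized reads, 99.99% of genes had a whole-read solution and 93.7% exactly 1. limma 3.58.1 (R 4.3.3) with a mean-variance trend was run on these reads (log2, 0.5 added, divided by the size factor) where the mean was 1 or more. Tested on simulated data of the deletion comparison, recovery was right in 99.98% of 17225 genes. In the same simulation's 16360 limma genes, limma called 72.0% of 82 genes changed by 1 log2 unit and 100% of 86 changed by 2, with 2 false calls. The simulation gave every gene the same dispersion between libraries and changed only genes with many reads. These shares therefore do not tell how often limma would find such changes in the real libraries, where it called 0 of 16609 genes.

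RefSeq promoter windows (GRCm38.p6) were searched for 6 motifs. Pseudogene copies were taken from the gene descriptions in the tables. The genes and lists were chosen with earlier results of these data known. Named were called genes, the lowest p values per complex (3 on deletion, 2 on knockdown) and list, the highest and lowest level per kilobase, complex II, cytochromes c and c1, isoform pairs and genes above 0 in both; Ndufa9, Ndufs1, Sdhaf2, Pprc1, Myc on deletion, Lck on knockdown, the stalk and small membrane genes of complex V, genes with copies and overlapping genes were added after their values were seen, and an item of this rule is not reported here. The rest used pandas 2.3.3 and numpy 2.4.6 in Python 3.11.15, with figures from matplotlib 3.10.9.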

Additional observations from a re-analysis of the deposited data

How the results depend on the processing

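No paired analysis was possible because the tables hold group means and nothing ties a recovered library to a replicate. On deletion, 3 members called lower and 1 higher held with a 1.5-fold minimum, with the adjustment over listed or protein-coding genes, among genes with means of 10 or more and without marked genes, and an adjusted p of 0.1 gave 4 lower. limma on the recovered reads gave 0 lower and 0 higher with all libraries, and 0 and 0 leaving out each library, where the lone library of a group is assumed to vary like the other group, so these counts say nothing about stability. For the 4 genes its adjusted p ran from 0.126 to 0.127 with all libraries and from 0.0785 to 0.378 leaving one out. On knockdown the counts were 0 in each direction under every alternative. Of 114 alternative medians, 113 kept their direction and 105 stayed within 0.119, the SD between deletion libraries, which was also used for the knockdown. Every median that moved farther or turned did so on leaving out a library. Most of the other alternatives reuse the same group means, so these counts tell little about stability between libraries. Leaving out one library moved the deletion median over all members between -0.49 and -0.22, complex I between -0.47 and -0.20, complex II between -0.29 and 0.06, complex III between -0.54 and -0.40, complex IV between -0.63 and -0.24 and complex V between -0.66 and -0.18. The cause was not tested. With copies added, chosen after the data were seen, no family reversed. Having 2 libraries a group, and listed copies that may share reads, limits what single genes can show.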
